A study of Mus musculus with 14 samples.

Results

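H3K9cr and H3K9ac, marks of histone H3, were read in chromatin of whole mouse kidneys at 44 genes that mark T cells and natural killer (NK) cells. The genes were chosen by name, from the T cell receptor to the granzymes, and make up 44 of the 21887 protein-coding genes on the autosomes, X and Y in the RefSeq annotation of GRCm38. Each was scored by the ChIP-seq peaks within 3 kb to either side of both gene ends. A gene was counted as having a peak when at least 1 bp of one lay there, and its covered bases are the peak bases inside these windows.

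The study asked how crotonylation of H3 lysine 9 (H3K9cr) changes in kidney fibrosis when ACSS2, an enzyme that makes acyl-CoA for histone acylation, is missing, and measured acetylation of the same residue (H3K9ac) alongside. The 4 groups were WT and ACSS2-/- mice, each as control and after unilateral ureteric obstruction (UUO), an operation that ties the left ureter and leads to inflammation and fibrosis. According to the methods, C57BL/6J mice of 6 to 8 weeks were used, controls had a sham operation, and the ACSS2-/- mice were a knockout line separate from the tubule-specific one, which is not analysed here. ACSS2 in immune cells was not measured in these libraries. The labels gave neither the age of a mouse nor the time after the operation. H3K9cr was measured in 2 libraries per group, 8 in all. H3K9ac was measured in 2 libraries per UUO group and 1 per control group, 6 in all. No label ties a library to a separate animal, so the spread between 2 libraries may be in part technical. The labels gave the antibody against each mark a catalogue number that rises by 1 from group to group, while the methods name a single supplier per mark. Whether different antibodies were used is not given in the sources used here, and the number and the group cannot be told apart.

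T cells recognise antigen through a receptor whose signal is passed on by the CD3 chains (Cd3d, Cd3e, Cd3g and the zeta chain Cd247) to the kinases Lck and Zap70 and the adaptor Lat. Cytotoxic T cells and NK cells kill target cells with perforin and granzymes. Both cell types enter the obstructed kidney from the blood. H3K9cr and H3K9ac are found at the starts of active genes. In whole kidney chromatin, a peak reads a mixture of all cells present. In such bulk samples, fewer cells of a type and less of the mark per cell cannot be told apart.

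The promoters of 6 members are printed here. Cd3e, Lat and Gzmk were chosen as they had H3K9cr in both WT UUO libraries and in no ACSS2-/- UUO library. Gzma is a relative of Gzmk that had no peak in any library, and Cd3d and Cd3g are neighbours in the CD3 locus. Each line gives the 250 bases before the start site, 5′ to 3′ on the gene's own strand, from RefSeq (GRCm38.p6). Capitals mark matches to any of 7 short motifs on either strand. The windows are chr9:45009612-45009861 (minus strand) for Cd3e, chr7:126369569-126369818 (minus strand) for Lat, chr13:113180966-113181215 (minus strand) for Gzmk, chr13:113100982-113101231 (minus strand) for Gzma, chr9:44981536-44981785 (plus strand) for Cd3d and chr9:44980432-44980681 (minus strand) for Cd3g.
Cd3e: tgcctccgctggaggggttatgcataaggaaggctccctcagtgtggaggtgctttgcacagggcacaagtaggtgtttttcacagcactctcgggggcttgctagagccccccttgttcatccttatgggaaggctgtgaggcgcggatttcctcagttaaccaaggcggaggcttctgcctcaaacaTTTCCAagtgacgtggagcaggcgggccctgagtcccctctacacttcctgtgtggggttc
Lat: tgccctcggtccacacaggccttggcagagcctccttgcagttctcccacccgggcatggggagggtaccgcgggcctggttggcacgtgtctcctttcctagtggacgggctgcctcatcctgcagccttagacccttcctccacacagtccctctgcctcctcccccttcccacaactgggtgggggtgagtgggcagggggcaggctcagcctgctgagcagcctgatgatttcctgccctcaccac
Gzmk: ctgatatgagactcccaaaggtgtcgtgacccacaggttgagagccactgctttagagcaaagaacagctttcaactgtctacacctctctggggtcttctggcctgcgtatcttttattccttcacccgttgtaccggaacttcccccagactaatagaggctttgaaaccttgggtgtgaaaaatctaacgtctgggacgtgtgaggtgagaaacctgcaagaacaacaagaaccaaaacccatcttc
Gzma: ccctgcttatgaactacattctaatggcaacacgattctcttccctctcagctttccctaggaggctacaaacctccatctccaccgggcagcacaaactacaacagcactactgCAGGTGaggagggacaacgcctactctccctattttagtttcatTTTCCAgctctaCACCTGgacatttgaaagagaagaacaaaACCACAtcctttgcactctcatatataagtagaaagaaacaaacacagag
Cd3d: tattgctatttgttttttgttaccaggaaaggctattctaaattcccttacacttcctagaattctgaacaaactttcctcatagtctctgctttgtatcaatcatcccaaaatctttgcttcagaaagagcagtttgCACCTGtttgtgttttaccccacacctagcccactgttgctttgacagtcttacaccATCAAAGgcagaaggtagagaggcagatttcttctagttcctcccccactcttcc
Cd3g: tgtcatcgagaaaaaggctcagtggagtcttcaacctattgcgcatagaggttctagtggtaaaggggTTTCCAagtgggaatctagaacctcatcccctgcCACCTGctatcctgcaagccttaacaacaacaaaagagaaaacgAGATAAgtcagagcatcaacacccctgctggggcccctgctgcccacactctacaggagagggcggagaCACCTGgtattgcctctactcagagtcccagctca
In WT UUO kidneys, H3K9cr peaks covered 153 and 250 of these bases at Cd3e, 0 and 250 at Lat and 120 and 250 at Gzmk in replicates 1 and 2. In both ACSS2-/- UUO libraries, they covered 0 of them at each of the 3 genes. That follows from the choice of these genes and is no further result. The only motif match among these 3 promoters was to the NFAT core at Cd3e. At Gzma, matches to the E box, NFAT core and RUNX motifs were present and no peak was called.

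Promoters were listed for 31 of the 44 members, 40 in all, against 32851 in the whole table. The RUNX motif TGTGGT, on either strand, was in 15 of the 40 member promoters (37.5%) and in 14.0% of all promoters. The E box CAGGTG was in 32.5% of the member promoters and 17.2% of all. The others were closer: the GATA motif AGATAA in 10.0% and 9.99%, the NFAT core TTTCCA in 17.5% and 18.6%, the TCF/LEF motif CTTTGAT in 2.5% and 3.21%, the AP-1 motif TGACTCA in 2.5% and 4.46%, and the TATA motif TATAAA in 7.5% and 12.4%. The member promoters held a median of 3.5 CpG, and all promoters a median of 6. These shares describe letters in a window and were not tested. Cd4, Cd8b1, Cd2, Cd6, Cd7, Thy1, Cd28, Icos, Lag3, Skap1, Sh2d2a, Klrd1 and Cd69 had no entry.

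In control kidneys, most members carried no H3K9cr. Of the 44, 31 had no H3K9cr peak in any of the 4 control libraries, and 4 (Cd3g, Cd4, Lag3 and Tcf7) had one in every control library. The number with a peak was 7 and 7 in WT control and 11 and 6 in ACSS2-/- control libraries. After UUO, it was 33 and 30 in WT kidneys and 16 and 12 in ACSS2-/- kidneys. The mean was 31.5 ± 2.12 (SD, n = 2) in WT UUO and 14.0 ± 2.83 (SD, n = 2) in ACSS2-/- UUO, and the 4 values did not overlap. Over all protein-coding genes, the same libraries had a peak at 13426 ± 250 (SD, n = 2) and 13188.5 ± 409 (SD, n = 2) genes, a ratio of ACSS2-/- to WT of 0.982, against 0.444 at the members. The bases covered at the members summed to 46958 and 46368 bp in WT UUO and to 15880 and 8499 bp in ACSS2-/- UUO, 3.83-fold more in WT by the means. No p is given for these sums, since the members were chosen as a list and 2 libraries against 2 cannot give an exact permutation p below 0.333.

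**Figure D1:**
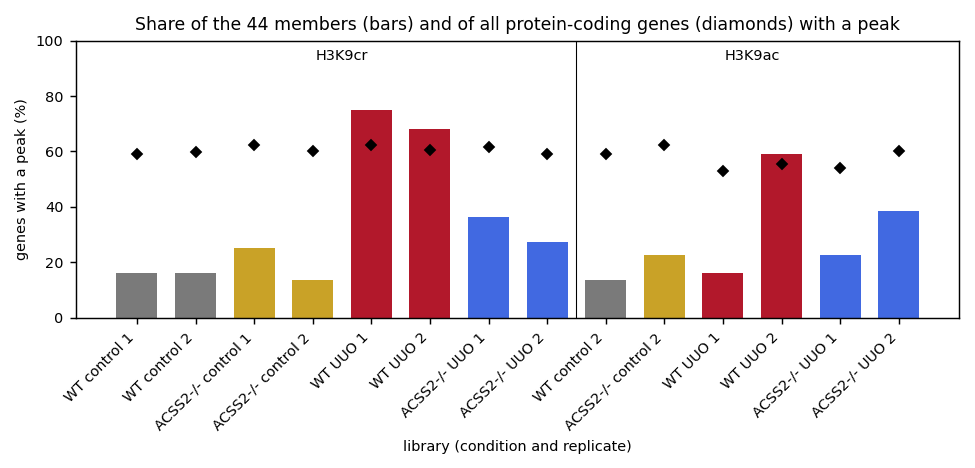
Share of genes with a peak (%, vertical axis) in each of the 14 libraries (horizontal axis), with bars for the 44 T and NK cell genes coloured by condition and diamonds for all protein-coding genes. The diamonds stay between 53.0% and 62.5%, while the H3K9cr bars stand at 75.0% and 68.2% in WT UUO, at 36.4% and 27.3% in ACSS2-/- UUO and at 25.0% or less in controls.

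Peaks on chromosome Y were called in replicate 1 and not in replicate 2 of the UUO H3K9cr libraries of both genotypes, and the labels give no sex. Within replicate 1 the members with a peak were 33 in WT and 16 in ACSS2-/-, and within replicate 2 they were 30 and 12. Acss2 itself, the deleted gene, was covered by H3K9cr peaks over 1069 and 1080 bp in WT UUO and 799 and 1583 bp in ACSS2-/- UUO, which checks nothing of the deletion, as peaks at gene ends need not fall in the deleted part.

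By the stricter rule, a member lost the mark when it had a peak in both WT UUO and in neither ACSS2-/- UUO library. H3K9cr was lost at 6 of the 25 members that could be called (24.0%), against 1.11% of the protein-coding genes that could be. The 6 were Cd3e of the receptor complex, the adhesion receptor Cd2, the costimulatory receptor Cd28, the adaptor Lat, the granzyme Gzmk and the early activation antigen Cd69. No member of the 6 that could be called gained H3K9cr, against 0.804% of genes. Leaving out a library eases the rule, and 11 members were then lost without WT UUO replicate 1 (2.11% of genes), 14 without WT UUO replicate 2 (3.06%), 13 without ACSS2-/- UUO replicate 1 (4.12%) and 9 without ACSS2-/- UUO replicate 2 (1.8%). With the 15988 longest peaks of every library, 9 of 14 members lost H3K9cr, against 1.63% of genes. A further 10 members had H3K9cr in both WT UUO and 1 of the 2 ACSS2-/- UUO libraries, 13 in 1 WT UUO library alone, and 9 in all 4. No member had H3K9cr in an ACSS2-/- UUO library without having it in WT UUO. A peak was present in at least 1 library at 38 members in WT UUO and at 19 in ACSS2-/- UUO. The remaining 6 and 25 of the 44 members stand beside 7958 and 8118 of all 21887 protein-coding genes without a peak in these groups. The other patterns were not counted over all genes.

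Covered bases also fall where a peak is kept but is shorter or one of several is gone. Both ACSS2-/- UUO values lay below both WT UUO values at 21 of 38 members with a peak in any of the 4 libraries (55.3%), against 25.1% of genes. They lay above at 0 of the 38, against 8.29% of genes. The share of genes moved with the libraries compared. Members were lower at 27 of 30 without WT UUO replicate 1 (34.1% of genes), at 31 of 33 without WT UUO replicate 2 (54.1%) and at 21 of 38 without ACSS2-/- UUO replicate 2 (31.7%). Without ACSS2-/- UUO replicate 1, they were lower at 24 of 38 (63.2%), close to the 55.5% of genes. With start sites only, 13 of 25 members were lower (25.7% of genes), and with equal numbers of longest peaks 13 of 23 (24.6%). Comparing libraries of the same replicate number instead, a looser rule, gave 22 lower and 0 higher. The share of genes under that rule was not computed, so these 2 counts have no background.

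**Figure D2:**
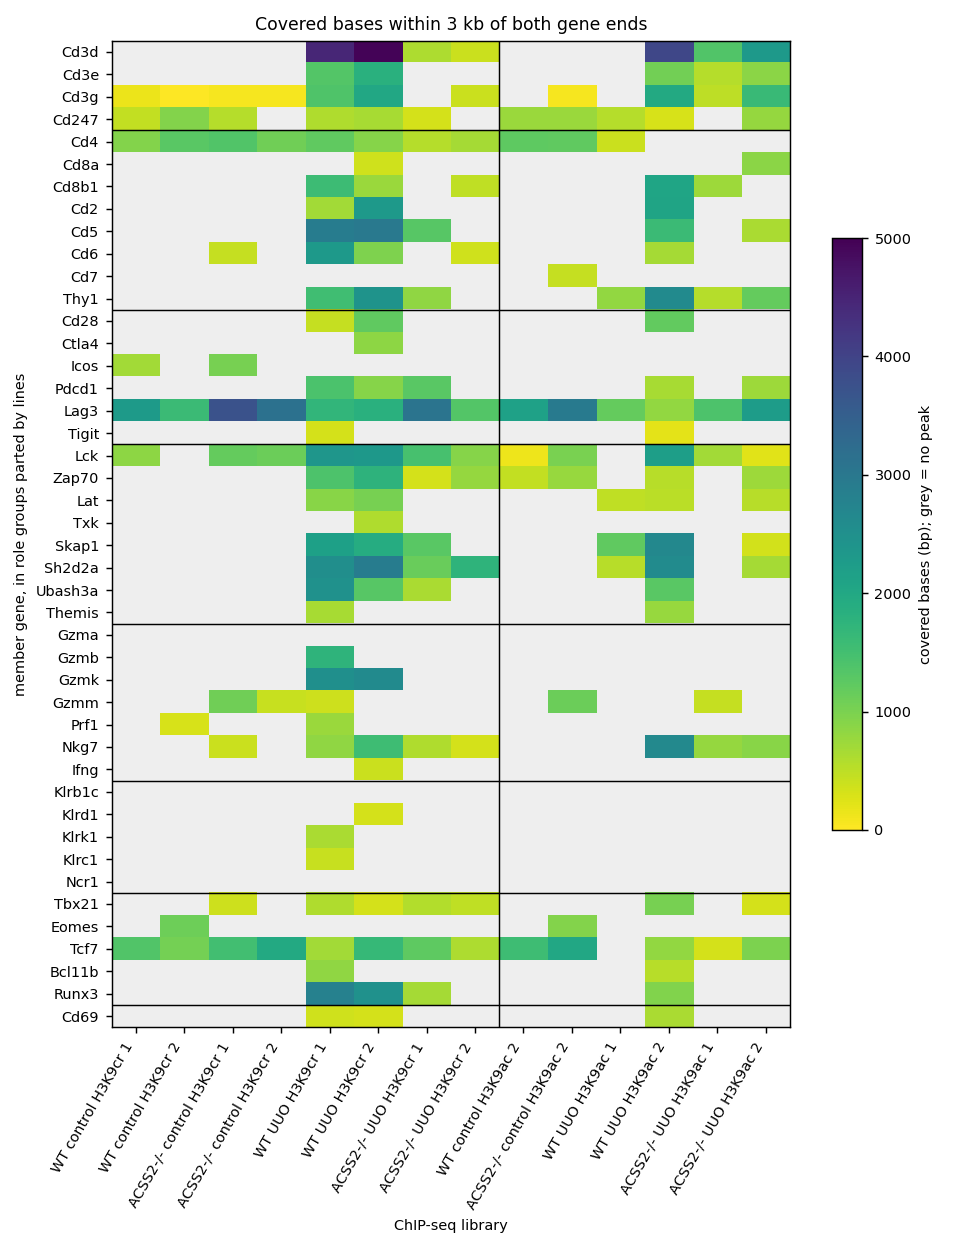
Covered bases (colour scale, bp; grey where no peak was called) of the 44 members (rows, in role groups parted by lines) in the 14 libraries (columns; H3K9cr left and H3K9ac right of the line). The 2 WT UUO H3K9cr columns and WT UUO H3K9ac replicate 2 are filled at 33, 30 and 26 members, and WT UUO H3K9ac replicate 1 at 7.

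The CD3 locus on chromosome 9 holds 3 of the 4 chains. Cd3d (chr9:44981769-44987052) had 4460 and 4959 bp of H3K9cr in WT UUO, 615 and 402 bp in ACSS2-/- UUO and 0 bp in all 4 control libraries. In H3K9ac, it had 0 and 3930 bp in WT UUO, 1359 and 2308 bp in ACSS2-/- UUO and 0 bp in both controls. Cd3d was thus covered the most of all members in WT UUO, and in H3K9cr its groups did not overlap. Cd3e (chr9:44998735-45009663) had 1336 and 1821 bp of H3K9cr in WT UUO and 0 bp in the other 6 H3K9cr libraries. Its H3K9ac was 0 and 1070 bp in WT UUO, 561 and 864 bp in ACSS2-/- UUO and 0 bp in the controls. Both ACSS2-/- UUO libraries of H3K9ac thus had peaks at a gene where no H3K9cr peak was called in that group. The H3K9cr peaks of Cd3e lay on the side of the gene near its start site, at most 1979 bp from that end by their centres. Cd3g (chr9:44969572-44980431) had 1377 and 2006 bp of H3K9cr in WT UUO, 0 and 402 bp in ACSS2-/- UUO and 155, 18, 64 and 77 bp in controls. Its H3K9ac was 0 and 1966 bp in WT UUO, 502 and 1619 bp in ACSS2-/- UUO, and 0 and 59 bp in WT and ACSS2-/- control. It starts 1337 bp from Cd3d in the opposite direction, and the peak shared with Cd3d in WT UUO replicate 1 lay 657 bp from the end of Cd3d and 1995 bp from that of Cd3g. The control bases of Cd3g came from peaks nearer to an end of another gene. Cd247 on chromosome 1, the signalling zeta chain, had 604 and 654 bp of H3K9cr in WT UUO, 330 and 0 bp in ACSS2-/- UUO, and 465, 934, 560 and 0 bp in the controls, which overlap the UUO values. In H3K9ac, it had 558 and 294 bp in WT UUO, 0 and 784 bp in ACSS2-/- UUO and 760 and 748 bp in the controls.

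Among the coreceptors and surface glycoproteins, 6 and 7 of 8 members had H3K9cr in WT UUO and 3 and 3 in ACSS2-/- UUO. Cd2, which binds adhesion ligands on other cells, had 691 and 2290 bp in WT UUO and 0 bp in the other 6 H3K9cr libraries, and its only H3K9ac was 2078 bp in WT UUO replicate 2. Cd5, a receptor that restrains T cell signalling, had 2907 and 2969 bp in WT UUO, 1290 and 0 bp in ACSS2-/- UUO and 0 bp in the controls, and its H3K9ac was 0 and 1591 bp in WT UUO, 0 and 641 bp in ACSS2-/- UUO and 0 bp in the controls. Cd6, a relative of Cd5, had 2315 and 958 bp in WT UUO, 0 and 368 bp in ACSS2-/- UUO, 0 bp in WT control and 434 and 0 bp in ACSS2-/- control. Its only H3K9ac was 665 bp in WT UUO replicate 2. At Cd5 and Cd6, the H3K9cr values of the genotypes in UUO did not overlap. Thy1, a surface protein of mouse T cells, had 1525 and 2424 bp in WT UUO, 839 and 0 bp in ACSS2-/- UUO and 0 bp in the controls. The coreceptor chain Cd8b1 had 1563 and 752 bp and then 0 and 480 bp, with 0 bp in the controls, and its H3K9ac was 0 and 2052 bp in WT UUO, 728 and 0 bp in ACSS2-/- UUO and 0 bp in the controls. The other chain, Cd8a, had 1 H3K9cr peak in all, 360 bp in WT UUO replicate 2. Cd4 stood apart, with 926 and 1283 bp in WT control, 1364 and 1082 bp in ACSS2-/- control, 1217 and 914 bp in WT UUO and 552 and 675 bp in ACSS2-/- UUO. Its H3K9ac was 1232 bp in WT control, 1215 bp in ACSS2-/- control, 406 and 0 bp in WT UUO and 0 bp in ACSS2-/- UUO. The Cd4 peaks of both marks, in control and UUO kidneys, lay nearer to an end of Gpr162, a neighbouring gene, than to an end of Cd4. The exception was a peak of 469 bp in ACSS2-/- control H3K9cr replicate 1. Cd7 had no H3K9cr in any library.

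Of the costimulatory and checkpoint receptors, Cd28 had 432 and 1217 bp of H3K9cr in WT UUO and 0 bp in the other 6 H3K9cr libraries, and in H3K9ac it had 1199 bp in WT UUO replicate 2 alone. Pdcd1, which encodes the inhibitory receptor PD-1, had 1409 and 901 bp in WT UUO and 1288 and 0 bp in ACSS2-/- UUO, which overlap. Lag3 was covered in every one of the 14 libraries. Its H3K9cr was 2279 and 1595 bp in WT control, 3736 and 3138 bp in ACSS2-/- control, 1702 and 1824 bp in WT UUO and 3069 and 1333 bp in ACSS2-/- UUO, and its H3K9ac in the controls was 2136 and 2942 bp. Its window also holds an end of Ptms, and in every library part of its bases came from a peak nearer to an end of Ptms. A separate peak in every library lay nearest to an end of Lag3. In WT UUO H3K9cr replicate 1, that peak was 1432 bp long, with its centre 5 bp from the end of Lag3. Ctla4 and Tigit each had H3K9cr in a single WT UUO library, and Icos had it in 2 control libraries and in none after UUO.

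The signalling group downstream of the receptor had 7 and 7 of its 8 members with H3K9cr in WT UUO, against 5 and 3 in ACSS2-/- UUO. Lat, the adaptor that gathers signalling proteins at the membrane, had 886 and 1024 bp in WT UUO and 0 bp in the other 6 H3K9cr libraries. Its H3K9ac was 480 and 522 bp in WT UUO, 0 and 529 bp in ACSS2-/- UUO and 0 bp in the controls. In ACSS2-/- UUO, H3K9ac was thus called in 1 library and H3K9cr in neither. Lck, the kinase that starts the signal, had 2373 and 2335 bp of H3K9cr in WT UUO and 1455 and 901 bp in ACSS2-/- UUO, with 847 and 0 bp in WT control and 1188 and 1131 bp in ACSS2-/- control. Its H3K9ac was 0 and 2192 bp in WT UUO, 685 and 219 bp in ACSS2-/- UUO, and 119 and 1015 bp in WT and ACSS2-/- control. The 219 and 119 bp, and part of the 1015 bp, came from peaks nearer to an end of Fam167b, a neighbouring gene. Zap70, the kinase that binds the CD3 chains, had 1404 and 1773 bp in WT UUO and 329 and 789 bp in ACSS2-/- UUO, with 0 bp in the controls. At Lck and Zap70, the UUO values of the genotypes did not overlap. The H3K9ac of Zap70 was 0 and 542 bp in WT UUO, 0 and 737 bp in ACSS2-/- UUO, and 461 and 781 bp in WT and ACSS2-/- control. The 542 bp lay near the start of Zap70, as its H3K9cr did, and the 737, 461 and 781 bp lay beyond its other end. Sh2d2a, an adaptor of T cells, had 2530 and 2910 bp of H3K9cr in WT UUO, 1142 and 1739 bp in ACSS2-/- UUO and 0 bp in the controls. In H3K9ac, it had 536 and 2586 bp in WT UUO, 0 and 672 bp in ACSS2-/- UUO and 0 bp in the controls. Of the others, the adaptor Skap1 had 2166 and 1903 bp of H3K9cr against 1276 and 0 bp, and Ubash3a, a negative regulator of the receptor signal, 2480 and 1298 bp against 630 and 0 bp, both with 0 bp in the controls for both marks. The only H3K9ac of Ubash3a was 1282 bp in WT UUO replicate 2. Txk and Themis had H3K9cr in a single WT UUO library each.

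The cytotoxic genes were covered less evenly. Gzmk (chr13:113171630-113180965) had 2518 and 2604 bp of H3K9cr in WT UUO, with an SD of 60.8 bp, and 0 bp in the other 6 H3K9cr libraries and in all 6 H3K9ac libraries. Gzma had no peak of either mark, Gzmb 1755 bp in WT UUO replicate 1 alone, and the perforin gene Prf1 751 bp in the same library and 294 bp in a WT control. Nkg7, a granule protein of cytotoxic cells, had 833 and 1548 bp in WT UUO, 593 and 316 bp in ACSS2-/- UUO, 0 bp in WT control and 391 and 0 bp in ACSS2-/- control. The H3K9ac of Nkg7 was 0 and 2641 bp in WT UUO, 791 and 897 bp in ACSS2-/- UUO and 0 bp in the controls. The interferon gamma gene Ifng had 410 bp in WT UUO replicate 2 and no other peak. Gzmm went the other way between controls, with 0 bp in both WT control and 1093 and 426 bp in ACSS2-/- control libraries. In UUO kidneys, Gzmm had 390 and 0 bp in WT and 0 bp in ACSS2-/-, and its H3K9ac was 1123 bp in ACSS2-/- control, 0 bp in WT control, 0 bp in both WT UUO and 449 and 0 bp in ACSS2-/- UUO libraries. Of the 5 NK receptors, Klrb1c and Ncr1 had no peak in any library, and Klrd1, Klrk1 and Klrc1 had H3K9cr in 1 WT UUO library each, of 318, 639 and 427 bp. None of the 5 had a peak in both libraries of any group.

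Among the transcription factors, Runx3, which directs cytotoxic T cells, had 2800 and 2461 bp of H3K9cr in WT UUO and 670 and 0 bp in ACSS2-/- UUO, with 0 bp in the controls. Its only H3K9ac was 949 bp in WT UUO replicate 2. Tbx21, the factor of interferon-producing T cells, had 602 and 317 bp and then 570 and 479 bp, with no difference in direction that both pairs of libraries shared. Tcf7, a factor of resting T cells, was covered in all 8 H3K9cr libraries, from 615 to 1959 bp, and an end of Skp1 lies in its window. Eomes had no H3K9cr after UUO, and Bcl11b had it in 1 WT UUO library. Cd69, an antigen of early activation, had 355 and 313 bp in WT UUO and 0 bp in the other 6 H3K9cr libraries, and its H3K9ac was 636 bp in WT UUO replicate 2 alone.

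**Figure D3:**
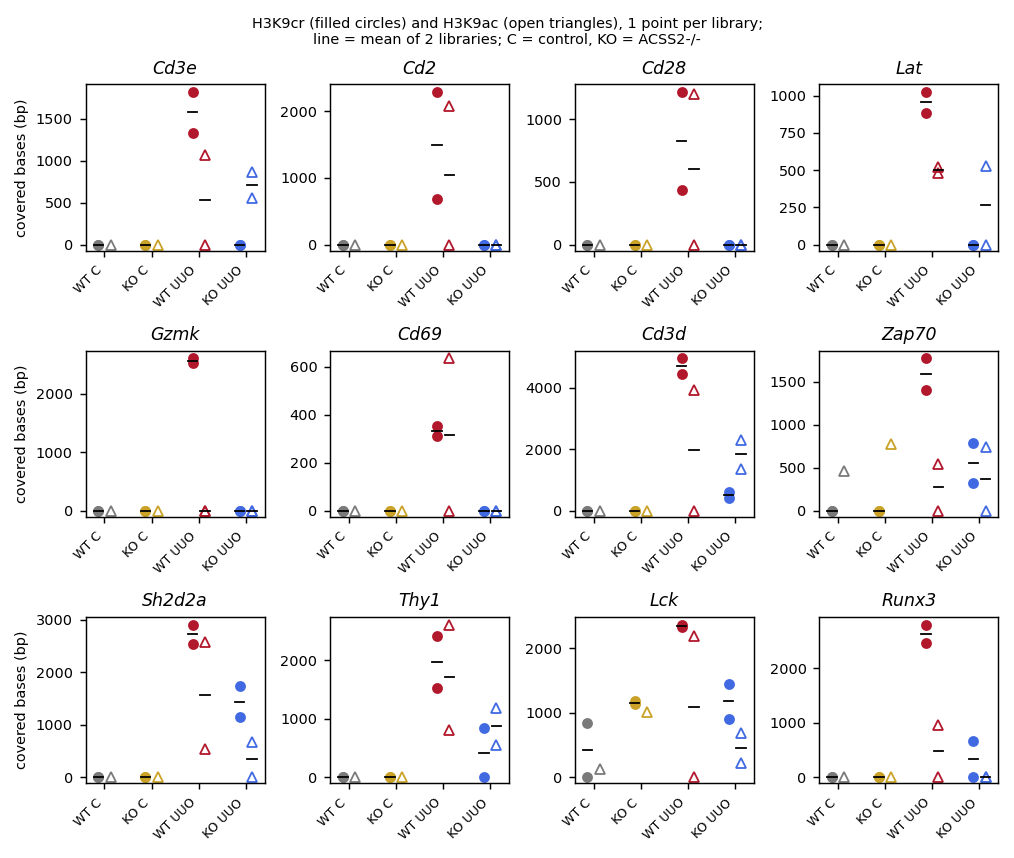
Covered bases (bp, vertical axis, 1 scale per gene) of 12 members by condition, with 1 filled circle per H3K9cr library, 1 open triangle per H3K9ac library and a line at the mean of 2 libraries. Cd3e, Cd2, Cd28, Lat, Gzmk and Cd69 have H3K9cr in both WT UUO libraries and 0 bp in ACSS2-/- UUO, and at Gzmk the WT UUO circles lie at 2518 and 2604 bp with every triangle at 0.

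H3K9ac gave another picture, and its direction depended on which libraries were compared. The members with an H3K9ac peak numbered 7 and 26 in WT UUO and 10 and 17 in ACSS2-/- UUO, and 6 and 10 in WT and ACSS2-/- control. The mean was 16.5 ± 13.44 (SD, n = 2) in WT UUO and 13.5 ± 4.95 (SD, n = 2) in ACSS2-/- UUO, so the difference was smaller than the spread between the WT libraries. H3K9ac was lost at 0 of 6 members that could be called (0.159% of genes) and gained at 0 of 17 (2.21% of genes). Covered bases were lower in ACSS2-/- UUO at 1 of 29 members, Skap1 (2.7% of genes), and higher at 1 of 29, Lag3 (29.8% of genes). Skap1 had 1214 and 2669 bp in WT UUO and 0 and 341 bp in ACSS2-/- UUO, and Lag3 had 1184 and 801 bp and then 1398 and 2238 bp. The libraries of WT UUO stood apart from each other at the members: 20 had H3K9ac in replicate 2 and not in replicate 1, and 1, Cd4, the reverse. Over all protein-coding genes they were closer, with 11609 and 12178 genes having a peak. Without WT UUO replicate 1, H3K9ac covered bases were lower in both ACSS2-/- UUO libraries at 20 of 28 members, against 13.7% of genes, and 9 of 26 members lost the mark, against 1.31% of genes. The difference in members with a peak, ACSS2-/- minus WT, was -3.0, and it was -12.5 without WT UUO replicate 1, 6.5 without WT UUO replicate 2 and 0.5 without ACSS2-/- UUO replicate 1. Without WT UUO replicate 2, H3K9ac covered bases were lower at 2 of 20 members (6.1% of genes) and higher at 7 (53.7% of genes).

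The peak names carry a number of their own, which in 4 libraries is not the labelled replicate number. By that number, the libraries of 1 WT UUO mouse had 30 members with H3K9cr and 26 with H3K9ac, those of 1 ACSS2-/- UUO mouse 16 and 17, and those of another ACSS2-/- UUO mouse 12 and 10. In these 3 pairs, 23, 13 and 7 members had both marks, which made up 76.7%, 81.2% and 58.3% of those with H3K9cr. Over all protein-coding genes, the shares were higher, at 90.7%, 94.6% and 90.1%. WT UUO H3K9ac replicate 1, with 7 members, and WT UUO H3K9cr replicate 1, with 33, bear different numbers and no partner. Whether these numbers identify mice is not given in the sources used here, and groups and replicates were taken from the labels throughout.

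Within WT UUO kidneys, H3K9cr was in both libraries and H3K9ac in neither at 1 of 25 members, Gzmk, against 5.73% of genes, and the reverse held at 0 of 6 (0.138% of genes). Of the 25 members with H3K9cr in both WT UUO libraries, 23 had H3K9ac in replicate 2 and 7 in replicate 1. Within ACSS2-/- UUO kidneys, H3K9cr without H3K9ac was found at 1 of 9 members, Cd4, against 2.11% of genes. These Cd4 peaks lay nearer to an end of Gpr162. The reverse, H3K9ac without H3K9cr, was found at 1 of 25, Cd3e, against 0.468%.

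UUO and control kidneys were then compared. Over both genotypes, H3K9cr was called in every UUO library and in no control library at 3 of 31 members, Cd3d, Zap70 and Sh2d2a, against 1.21% of genes, and was lost at 0 of 4 (0.477% of genes). The count gained was 9 without ACSS2-/- UUO replicate 2, 5 without ACSS2-/- control replicate 1 and 1 with equal numbers of longest peaks. Leaving out a library eases the rule. The share of genes was not computed for these counts, so they have no background. In WT kidneys alone, 19 of 35 members gained H3K9cr with UUO (5.21% of genes) and 0 of 5 lost it (1.38%). In ACSS2-/- kidneys alone, 3 of 33 gained it (2.06%) and 1 of 6, Gzmm, lost it (1.94%). The WT and ACSS2-/- counts come from separate comparisons, and the difference between them was not tested. Thy1 was the 1 of 34 members that gained H3K9ac in UUO over both genotypes (0.237% of genes), with 807 and 2616 bp in WT UUO, 547 and 1190 bp in ACSS2-/- UUO and 0 bp in both controls, and 0 of 6 lost it (1.9%). Between control kidneys, ACSS2-/- gained H3K9cr at 1 of 35 members, Gzmm (1.8% of genes), and lost it at 0 of 5 (0.23% of genes).

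With 4 UUO against 4 control H3K9cr libraries, an exact two-sided permutation test over all 70 arrangements can reach a p of 0.0286 for a single gene. Cd3d, with a mean of 2609 bp in UUO, Sh2d2a, with 2080.25 bp, and Zap70, with 1073.75 bp, reached it against 0 bp in the controls, each higher in 4 of 4 UUO libraries. The smallest p was reached in this direction by 3 of 40 members tested and 2.28% of the 14801 genes tested. After Benjamini-Hochberg adjustment over the 14801 genes, the smallest adjusted p of the exact permutation test was 0.187, so 0 genes passed 0.05, while 2265 were under 0.05 unadjusted.

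Around the start sites of the 31 members with a listed promoter, H3K9cr in WT UUO was densest just inside the gene. It covered 13 of the 31 (41.9%) at 150 bp downstream in replicate 1 and 15 (48.4%) from 150 to 400 bp downstream in replicate 2. In ACSS2-/- UUO, the most members covered at any distance was 4 (12.9%) and 5 (16.1%). At the start site itself, 8 and 6 members were covered in WT UUO and 2 and 3 in ACSS2-/- UUO, while a peak covered between 45.9% and 52.2% of the start sites of the other genes in these 4 libraries. H3K9ac in WT UUO replicate 2 covered up to 13 members (41.9%), from 500 to 650 bp downstream, and in replicate 1 at most 1.

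**Figure D4:**
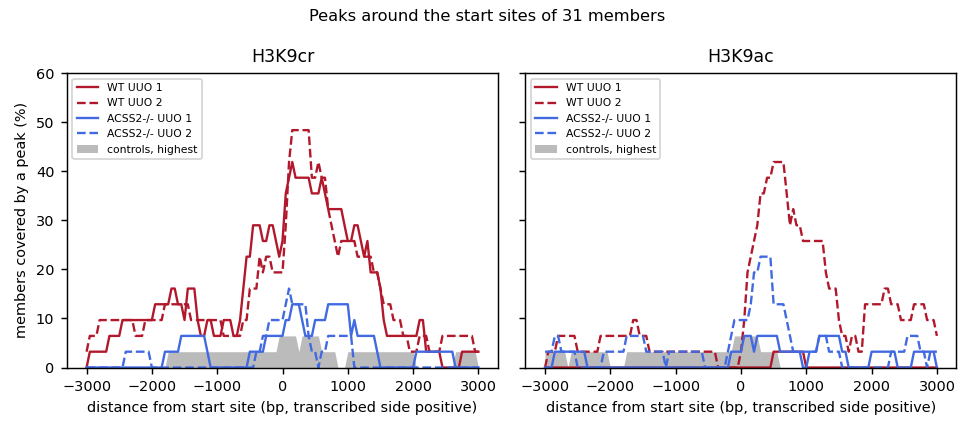
Share of 31 members covered by a peak (%, vertical axis) at each distance from the start site (bp, horizontal axis; the transcribed side is positive), for H3K9cr (left) and H3K9ac (right), with 1 line per UUO library and the highest control value in grey. The WT UUO H3K9cr lines rise to 41.9% and 48.4% just inside the gene, and the ACSS2-/- UUO lines to 12.9% and 16.1%.

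Other gene lists were scored in the same windows to show what moved beside the members. Of 42 other lymphocyte genes, 28 and 31 had H3K9cr in WT UUO and 25 and 22 in ACSS2-/- UUO, with 15 to 17 in controls, and their summed covered bases were 50233 and 58495 bp against 35500 and 24798 bp. Of 9 pan-leukocyte genes, 9 and 9 had H3K9cr in WT UUO and 9 and 8 in ACSS2-/- UUO, with sums of 20406 and 18792 bp against 16688 and 9007 bp. Ptprc, the CD45 antigen of all leukocytes, was covered over 2263 and 1744 bp in WT UUO and 1919 and 938 bp in ACSS2-/- UUO. The number of pan-leukocyte genes with a peak was thus at or near its maximum in every UUO library, and their summed bases were lower in both ACSS2-/- UUO libraries. Of 16 mononuclear phagocyte genes, 14 and 11 had H3K9cr in WT UUO and 11 and 8 in ACSS2-/- UUO, with sums of 43893 and 31123 bp against 32149 and 14610 bp, and Itgam was at 0 bp in these 4 libraries. Of 13 B cell genes, 5 and 4 had a peak in each of the 2 genotypes, with sums of 8168 and 9141 bp against 9113 and 5960 bp. Cd79a, Ebf1 and Spib were covered in all 4 UUO libraries, while 8 genes, Ms4a1 and Pax5 among them, were at 0 bp in all 4. The sums in controls were 7695 to 9837 bp. Of 13 proximal tubule genes, 9 and 6 had H3K9cr in WT UUO, 10 and 10 in ACSS2-/- UUO and 12 or 13 in controls, with sums of 12943 and 7277 bp against 12463 and 12983 bp. The remaining nephron, endothelial and stromal lists had 6 and 7 of 10, 8 and 7 of 8, and 8 and 6 of 9 genes with H3K9cr in WT UUO, and 8 and 8, 7 and 5, and 7 and 4 in ACSS2-/- UUO. Their sums were 17308 and 15536 bp against 11767 and 12004 bp for the distal nephron, which did not overlap, 12730 and 6174 bp against 12054 and 6239 bp for endothelium, and 9921 and 9247 bp against 11883 and 4129 bp for stroma. In ACSS2-/- UUO against WT UUO, the genes of these lists that lost H3K9cr were Ikzf3, Sh2d1a, Lyz2 and Tie1, and those that gained it were Itgae and Slc12a1. Cx3cr1, Slc5a12, Acta2 and Tagln gained H3K9ac. The part of cell number in the difference at the members was not tested.

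**Figure D5:**
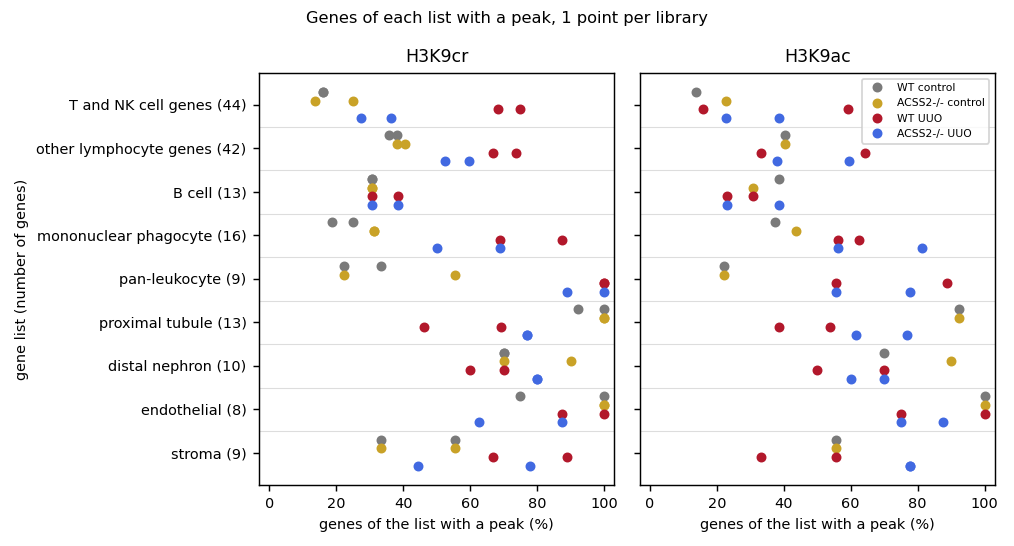
Share of the genes of each list with a peak (%, horizontal axis) for H3K9cr (left) and H3K9ac (right), with 1 point per library coloured by condition and the number of genes of each list (vertical axis) in brackets. In H3K9cr, the red and blue points are apart for the 44 T and NK cell genes (68.2% and 75.0% against 27.3% and 36.4%). They are also apart for the other lymphocyte genes (28 and 31 against 25 and 22 of 42). For the proximal tubule (9 and 6 against 10 and 10) and distal nephron (6 and 7 against 8 and 8), they are apart in the other direction. Pan-leukocyte points are at or near the maximum of 9 genes, and that count cannot show a difference in covered bases.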

How the data were processed

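H3K9cr and H3K9ac ChIP-seq libraries of mouse kidneys were sequenced as 150 bp paired-end reads. According to the methods, the authors aligned reads with Bowtie2, removed organelle reads, duplicates and reads with a mapping quality under 30, and called peaks with MACS2 at q under 0.05. The labels name the build mm10. The control given to MACS2 is not given in the sources used here. The deposited lists hold peak positions, 1 list per library, with no height, score or read count, so depth is unknown. Lists held 15988 to 45014 peaks, and deeper libraries pass more peaks. A count test could not be run.

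Genes were RefSeq records of GRCm38, used without strand except where the promoter table gave it. In the promoter table, all 1668 overlaps of windows on opposite strands agreed in sequence. The annotation used gave gene ends and no exons. Background shares are of protein-coding genes that could be called in the same direction. The members and lists were chosen with earlier results of these data known, and support nothing beyond these libraries. All 44 members are described, with values in every library for members called between genotypes in UUO or over both genotypes between operations, and for the receptor complex. Single genes were compared between operations by an exact permutation test with Benjamini-Hochberg adjustment. Code was tested on simulated data. Alternatives were a 1 kb window, start sites only, at least 50% of a peak in the window, the 15988 longest peaks per library, members free of neighbouring gene ends, all RefSeq genes as background, the replicate block, 1 genotype only, each library left out in turn and, chosen after seeing the data, the whole gene with 3 kb to either side. Scripts ran under Python 3.11.15 with pandas 2.3.3 and numpy 2.4.6, and matplotlib 3.10.9 drew the figures.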

Additional observations from a re-analysis of the deposited data

Results flagged for a closer look

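Lck was the 1 member where the difference between genotypes had opposite directions with and without obstruction in every library compared. Its mean H3K9cr covered bases in ACSS2-/- minus WT were -1176 bp in UUO kidneys (1455 and 901 bp against 2373 and 2335 bp) and 736 bp in control kidneys (1188 and 1131 bp against 847 and 0 bp). The difference between these 2 effects was not tested. The share of all genes with such opposite directions was not computed, so this count of 1 member has no background.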

How the results depend on the processing

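Of 159 comparisons of a value under another setting with the reported one, 112 stayed within 1.5 times for a count and within 1 SD of replicates for a difference of means. The difference in members with H3K9cr per library, ACSS2-/- UUO minus WT UUO, was -17.5 and became -11.5 over the 31 members with listed start sites, -14.0 with equal numbers of longest peaks and -15.0 over the 36 members with no other gene end in the window, and between -19.5 and -15.5 without 1 library. Without 1 library, members that lost H3K9cr numbered 9 to 14 (1.8% to 4.12% of genes). Members with lower covered bases then numbered 21 to 31, and those with higher 0 to 1 (13.1% to 31.9% of genes). Lower covered bases were found at 13 of 25 members with start sites only (25.7% of genes) and at 13 of 23 with equal numbers of longest peaks (24.6%), and without 1 library the share of genes lower was between 31.7% and 55.5%. Members that gained H3K9cr in UUO numbered 1 with equal numbers of longest peaks, 19 in WT libraries only and 3 to 9 without 1 library. In ACSS2-/- libraries only, 1 lost it. The share of genes was not computed for the gains with longest peaks or without 1 library.

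For H3K9ac, the difference of -3.0 members reversed to 6.5 without WT UUO replicate 2 and to 0.5 without ACSS2-/- UUO replicate 1, a range of -12.5 to 6.5. Members that lost it numbered 1 of 6 with the 1 kb window (0.171% of genes) and 2 of 5 with equal numbers of longest peaks (0.602%). Without 1 library, 0 to 9 lost it. The count was 4 of 6 without ACSS2-/- UUO replicate 2 (2.82% of genes) and 0 of 6 without ACSS2-/- UUO replicate 1 (0.239%). Without WT UUO replicate 2, it was 1 of 7 (0.5%). Those that gained it numbered 1 with the 1 kb window and 0 to 6 without 1 library. The share of genes was not computed for these gains. Lower covered bases were found at 2, 0, 2 and 0 members with the 1 kb window, start sites only, equal numbers of longest peaks and the whole gene. In that order, the shares of genes were 3.69%, 2.81%, 3.93% and 2.3%. Without 1 library, 1 to 20 members were lower, against 3.39% to 29.9% of genes. Higher covered bases were found at 0 with start sites only and at 0 of members with no other gene end, and at 1 to 7 without 1 library. Without 1 library, the share of genes higher was 33.9% to 81.0%, and it was not computed for the other settings. Members that gained H3K9ac in UUO numbered 0 with start sites only and 1 to 4 without 1 library, and 0 to 2 lost it. The share of genes was not computed for these counts between operations. The cause of these changes was not tested, except that fewer members or libraries entered.

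With the replicate block, which compares same-numbered libraries, H3K9cr covered bases were lower at 22 members. H3K9ac covered bases were lower at 3 and higher at 2. The share of genes was not computed for these counts between genotypes. Between operations, 5 members (Nkg7 and Tbx21 in addition) were higher in UUO at the smallest exact permutation p, then 0.0556, as were 3.41% of genes. Lower in UUO, 0 members and 17.2% of genes reached it. The deviations of same-numbered UUO libraries from their group means correlated at 0.05 for H3K9cr and 0.13 for H3K9ac. Chromosome Y peaks were shared by the UUO H3K9cr replicates 1, but no label ties the numbers to animals, and they were not taken as pairs. Among all RefSeq genes, 2.0% of those that could be called lost H3K9cr. Peak lists hold no depth, and a missing peak does not show that a mark is absent.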

Other observations

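Counting peaks anywhere from 3 kb before to 3 kb behind a gene, a window chosen after seeing the data, put 35 and 33 members with H3K9cr in WT UUO beside 20 and 16 in ACSS2-/- UUO. Of 29 members with H3K9cr in both WT UUO libraries, 8 had none in ACSS2-/- UUO, against 1.11% of genes. They were Cd3e, Cd28, Lat, Gzmk and Cd69, as at the gene ends, and in addition the costimulatory receptor Icos, the inhibitory receptor Tigit and Klrd1, the CD94 chain of NK cell receptors, whose WT UUO peaks lay in part inside the gene. Cd2 was no longer among them. Gzmk was the 1 member that lost H3K9cr by all 5 ways of choosing windows and peaks, and Cd3e and Lat did so by 4 of 5.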
